A study of Homo sapiens with 6 samples.

Results

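Of 1616 off-target GUIDE-seq sites on chromosomes 1 to 22 and X, 624 lay inside shorter protein-coding genes, and these 624 sites are described here. A site was taken where its position fell between the start and end of at least 1 protein-coding gene of the RefSeq gene table (GRCh38, patch release 14) and every such gene was under 250 kb long. Sites inside PKLR, the gene that all guides were aimed at (chromosome 1, 155289293 to 155308654, hg38), were left out. The other off-target sites were 219 in longer protein-coding genes and 773 outside protein-coding genes. The choice of sites used gene positions and lengths and no counts. At the length limit the nearest genes inside were CEP85L (249318 bp) and ATP8A1 (248733 bp), and the nearest outside were SIL1 (251645 bp) and MCTP2 (252587 bp).

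The 6 groups were the guide RNAs SG1, SG2, SG3, SG4, SG7 and SG8, with 1 library each. In every group the cells were HEK293, an established human embryonic kidney line, with the genotype of stable Cas9 expression, and each was nucleofected with a crRNA and tracrRNA complex of 1 guide and a double-stranded tag. No library without a guide was analysed here. The study asked where else than in PKLR, which encodes the liver and red cell form of pyruvate kinase, each guide led to tagged breaks.

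Cas9 cuts DNA where the guide pairs with the strand opposite a protospacer, and a short motif called the PAM, NGG for the common Cas9 of Streptococcus pyogenes, must follow the protospacer. Places with mismatches, or with a base bulged out of the pairing, can also be cut, and these are off-target sites. In GUIDE-seq a tag is built into the break, and tagged places are amplified and sequenced. A site in a gene body says only where the tag was recovered, and since the gene table lists whole genes, positions in an exon, an intron or a UTR are not told apart. The deposited count of each site is neither normalized nor comparable in depth between libraries, and is therefore given beside the count of the same library's PKLR site.

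The guide sequences are not given in the labels. The protospacers nearest to each guide's most counted PKLR position were read from the RefSeq promoter window of PKLR (GRCh38, chr1:155301389-155301688, minus strand gene). Cas9 cuts 3 bases before the PAM, and the stretch of 20 bases before an NGG whose cut fell nearest to the listed position was taken. These are inferences from position, and they are shown because the off-target sites below are compared with them. Capitals mark the PAM.

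SG1, chr1:155301417-155301439, plus strand: ctgcgggaccatggaatgagAGG

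SG2, chr1:155301500-155301522, minus strand: tggggacagggtggcctactGGG

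SG3 and SG8, chr1:155301451-155301473, plus strand: aaaactgctggtcttatctaAGG

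SG4, chr1:155301486-155301508, plus strand: agaaaaggggcacacccagtAGG

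The listed positions of SG3 and SG8 were 1 bp apart, 155301467 and 155301468, and both lay nearest to the same stretch. The next candidate began 1 base further on, aaactgctggtcttatctaaGGG, and position alone does not tell which of them belongs to which guide. Other candidates within 3 bp of the listed position existed for SG1, SG2 and SG4 as well. SG7 was listed at 155301389, the edge of the window, and no stretch is given for it.

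Of the 624 sites, 7 fell in a RefSeq promoter window (250 bases before to 50 after a gene start), so that the sequence under them could be read. They belonged to SG1, SG2 and SG4, and 5 of the 7 held a stretch with an NGG that matched the guide's PKLR stretch within 5 differences. Among all off-target sites in such windows, in shorter genes or not, 4 of 5 of SG1, 5 of 7 of SG2 and 5 of 11 of SG4 did. Such matches were thus not particular to sites in shorter genes. Differences are mismatches plus at most 1 base without a partner, the predicted cut had to lie within 3 bp of the listed position, and both strands were searched. The 5 sites in shorter genes are printed 5′ to 3′. Bases that differ from the PKLR stretch are in capitals, and the last 3 bases are the PAM.

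ETHE1, SG1, chr19:43527186-43527207, plus strand: ctgcgggGTcaggaatgagcgg

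C22orf42, SG2, chr22:32159456-32159477, minus strand: GAgggacagggtggccacAagg

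AIRIM, SG2, chr1:37692193-37692214, minus strand: GgAggGcTgggggcctactagg

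MZT2A, SG2, chr2:131492501-131492523, plus strand: CggggacGgggCCgcctCctcgg

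TEX264, SG4, chr3:51671303-51671325, plus strand: agaGGagAggcaTacccaCtggg

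The ETHE1 site had the fewest differences, 3, and the highest count, 1209. It differed at 2 printed bases and lacked a partner for base 12 of the guide's stretch. The C22orf42 site had 4 differences, 1 of them a missing partner at base 17, and 25 counts. AIRIM (6 counts), MZT2A (6 counts) and TEX264 (14 counts) had 5 differences each. The other 2 sites, in CYTH1 (6 counts) and S100A8 (3 counts) for SG4, had 12 and 7 differences at their best placement. Against the next candidate stretch at the guide's PKLR position, the 5 sites had 11 (ETHE1), 5 (C22orf42), 9 (AIRIM), 7 (MZT2A) and 8 (TEX264) differences. The same search at the middle base of all 34779 promoter windows found a stretch within 5 differences in 0.00288% of windows for SG1, 0.00288% for SG2 and 0.00575% for SG4. The sequence is that of the reference, not of these cells, and a match describes a place and does not show that it was cut there.

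SG2 had 210 sites in shorter genes, SG4 had 209, SG1 had 174, SG3 had 20, SG8 had 9 and SG7 had 2. Their share of a guide's off-target sites lay between 28.6% and 40.8%. It was 38.8% for SG1 (exact Clopper-Pearson 95% interval 34.3 to 43.5%), 39.4% for SG2 (35.2 to 43.7%), 40.8% for SG3 (27 to 55.8%) and 37.9% for SG4 (33.9 to 42.1%). For SG7 it was 28.6% (3.67 to 71%, 2 of 7 sites) and for SG8 32.1% (15.9 to 52.4%, 9 of 28 sites). Such genes, outside longer ones, cover 25.2% of the sequence between the first and last annotated genes of the chromosomes. This sequence counts centromeres and unsequenced gaps, so 25.2% and the density outside genes given below are rough backgrounds. The intervals of SG1, SG2, SG3 and SG4 lay above this share, and those of SG7 and SG8 held it. Over all guides there were 0.817 sites per Mb of shorter-gene sequence, 0.44 per Mb in longer genes and 0.438 per Mb outside protein-coding genes. Guides were not tested against each other, because none had a second library, and amplified reads are not independent molecules, so all intervals cover counting error only.

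**Figure D1:**
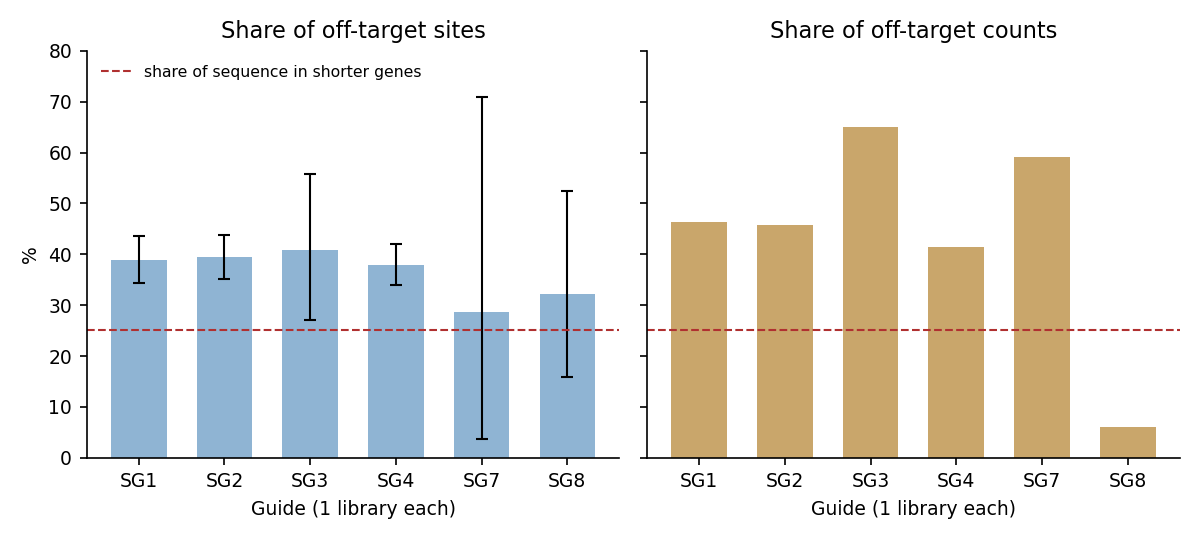
Left, percent of each guide's off-target sites that lie in shorter protein-coding genes, with exact 95% intervals; right, percent of its off-target counts at those sites, without an interval, for 6 guides with 1 library each. The dashed line is the 25.2% of sequence in such genes; the share of sites lies between 28.6% and 40.8%, and the share of counts runs from 6.13% (SG8) to 65% (SG3).

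The share of off-target counts at these sites ranged more widely than the share of sites. SG3 had 65%, SG7 59.2%, SG1 46.4%, SG2 45.7%, SG4 41.5% and SG8 6.13%. The SG7 value rests on 29 counts. Single sites weighed heavily: the 5 most counted sites held 52.8% of the shorter-gene counts of SG1, 51.7% of those of SG2, 88.6% of those of SG3 and 39.6% of those of SG4. Summed over sites, SG4 came to 664.5% of its PKLR count, SG2 to 611.6%, SG1 to 510.7% and SG3 to 223.8%. For SG7 they came to 0.72% and for SG8 to 2.27%.

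Most sites had few counts. The median site had 47 counts for SG3, 18 for SG4, 14.5 for SG2 and also for SG7, 14 for SG1 and 10 for SG8. The most counted had 5515 (SG2), 4569 (SG4), 2680 (SG1), 2273 (SG3), 84 (SG8) and 27 (SG7). At least 1% of the PKLR count was reached by 48 of the 174 sites of SG1 (27.6%, against 32.8% of all its off-target sites) and by 49 of the 210 of SG2 (23.3%, against 26.6%). It was reached by 12 of the 20 sites of SG3 (60%, against 51%), 69 of the 209 of SG4 (33%, against 29%), 0 of the 2 of SG7 (against 0%) and 1 of the 9 of SG8 (11.1%, against 32.1%). Within each library these shares are near those of all off-target sites, apart from SG8 with its 9 sites.

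No difference in counts between the shorter-gene sites and other sites passed the test over the guides. Each guide gave 1 difference, and these were tested with an exact two-sided sign-flip permutation test over the 6 guides, whose smallest possible p is 0.03125, adjusted over 4 tests by Benjamini-Hochberg. The median log10 count minus that of all other off-target sites was on average 0.0139 ± 0.296 (SD, n = 6), above 0 for 3 guides and below for 3 (exact p = 0.9062, adjusted 0.9062). Against longer-gene sites the mean difference was 0.164 ± 0.492 (SD, n = 6), above 0 for 4 guides (exact p = 0.5, adjusted 0.9062). The share of sites at 1% or more of the PKLR count differed by -3.9 ± 15.8 percentage points from that of other sites (SD, n = 6; exact p = 0.6875, adjusted 0.9062). The sign turns when 1 guide is left out for the difference from other sites (-0.0611 without SG7 and -0.0338 without SG3) and for the difference in share (1.51 without SG8). Against longer-gene sites the mean difference was 0.00266 without SG3. With at least 10 counts per site SG7 had no other site to compare with and gave no value. Over the remaining guides the mean difference from longer-gene sites was then -0.213, with 1 longer-gene site for SG3. That from all other sites was -0.0606, close to the -0.0611 without SG7.

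**Figure D2:**
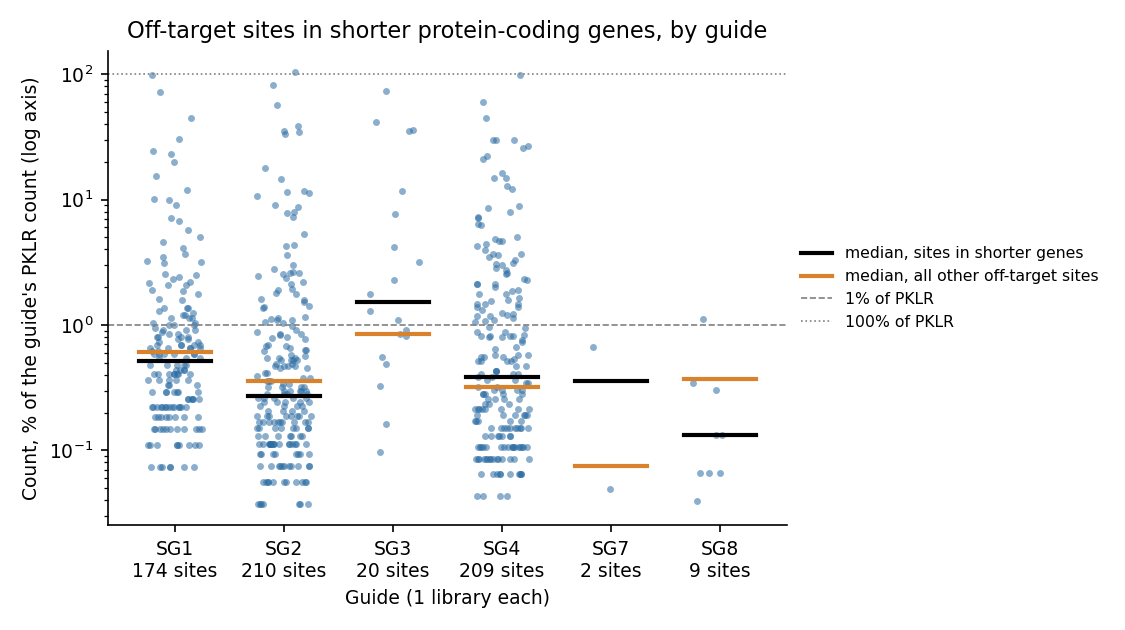
Each point is an off-target site in a shorter protein-coding gene, by guide; the log axis gives its count as percent of the same library's PKLR count. Bars give the median of these sites (black) and of all other off-target sites (orange), and lines mark 1% and 100% of PKLR; only the GUCY2F site of SG2 lies above 100%, at 103.4%.

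The most counted sites lay in genes of unlike function. SG1 had 2680 counts in SYNJ2 (98.2% of its PKLR count), which encodes synaptojanin 2, a phosphatase of membrane phosphoinositides. The gene spans 157981296 to 158099176 of chromosome 6, and the site was at 158089526, near its far end. A site in the overlapping genes CIB1, of a calcium-binding protein, and TTLL13, of a tubulin-modifying enzyme, had 1959 counts (71.8%). ETHE1, a mitochondrial enzyme of sulfide breakdown, followed with 1209 counts (44.3%), at the position shown above. KCNG3, a modifying subunit of potassium channels, had 835 counts, PRRT4 had 668, and SEC14L3, of a family of lipid-binding proteins, had 632. The next, in FLT3LG, a growth factor of blood cell precursors, had 549.

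SG2 had its most counted site in GUCY2F, the gene of a retinal guanylate cyclase, with 5515 counts (103.4% of the PKLR count, 99.5 to 107.4%) at position 109468691 of chromosome X. MYO18A, an unconventional myosin, had 4359 counts (81.7%), and DYRK1A, a protein kinase gene of chromosome 21, had 3054 counts (57.2%) at position 37387159. DRP2, dystrophin-related protein 2, had 2042 counts, SEPTIN6, a filament-forming GTPase, had 1889, and APOL5 of the apolipoprotein L family had 1845. Of these 6 genes, GUCY2F, DRP2 and SEPTIN6 are on chromosome X, which held 9 of the 210 SG2 sites. Over all guides chromosome X held 21 sites, 3.37% (2.1 to 5.1%) in 3.84% of shorter-gene sequence.

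SG3 had 4 sites above 1000 counts among its 20. ARID4A, which encodes a chromatin protein that binds the retinoblastoma protein, had 2273 counts (73.6%), and VDAC1, the main channel of the outer mitochondrial membrane, had 1293 (41.9%). SMCHD1, a chromatin protein of X inactivation, had 1114 (36.1%), and PRRG1, a membrane protein with a vitamin K-dependent domain, had 1083 (35.1%). GATAD2A, a subunit of the NuRD chromatin complex, had 237 counts.

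SG4 had 4569 counts in CCDC57, a coiled-coil protein gene, which is 98.2% of its PKLR count. FXYD7, a small regulator of the sodium-potassium pump, had 2805 counts (60.3%), and SLC23A1, a vitamin C transporter, had 2097 (45.1%). TOR1A, an ATPase of the endoplasmic reticulum and nuclear envelope, had 1392, CPT1A, the enzyme that commits fatty acids to mitochondrial oxidation, had 1391, and SORL1, a sorting receptor, had 1376. The last 3 came to 29.9%, 29.9% and 29.6% of the PKLR count, with overlapping counting intervals.

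SG7 and SG8 had few and weakly counted sites in shorter genes. SG7 had 27 counts in TNF, the gene of the cytokine tumour necrosis factor (0.67%, 0.441 to 0.976%), and 2 counts in VDAC1. SG8 had 84 counts in FOXC1, a forkhead transcription factor (1.11%), 26 in LRP6, a Wnt co-receptor, and 23 in VDAC1. It had 10 counts each in ABCD2, a peroxisomal transporter, and in the overlapping genes IFT46 and ARCN1. SMCHD1, SNX18 and MPDZ had 5 counts each, and RACK1 had 3.

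The 624 sites touched 595 different genes, 3.14% of the 18976 shorter protein-coding genes, and 18 sites lay in overlapping genes. The gene at a site had a median length of 72160 bp, against 22094 bp over all shorter genes and 89194 bp when each base of those genes counts once. Per Mb, sites were denser in the shortest of these genes. Genes under 10 kb held 38 sites, or 6.09% (4.35 to 8.26%) in 3.11% of the sequence, which is 1.6 per Mb. Genes of 10 to 25 kb held 1.34 per Mb, those of 25 to 50 kb 0.94, those of 50 to 100 kb 0.634 and those of 100 to 250 kb 0.722.

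**Figure D3:**
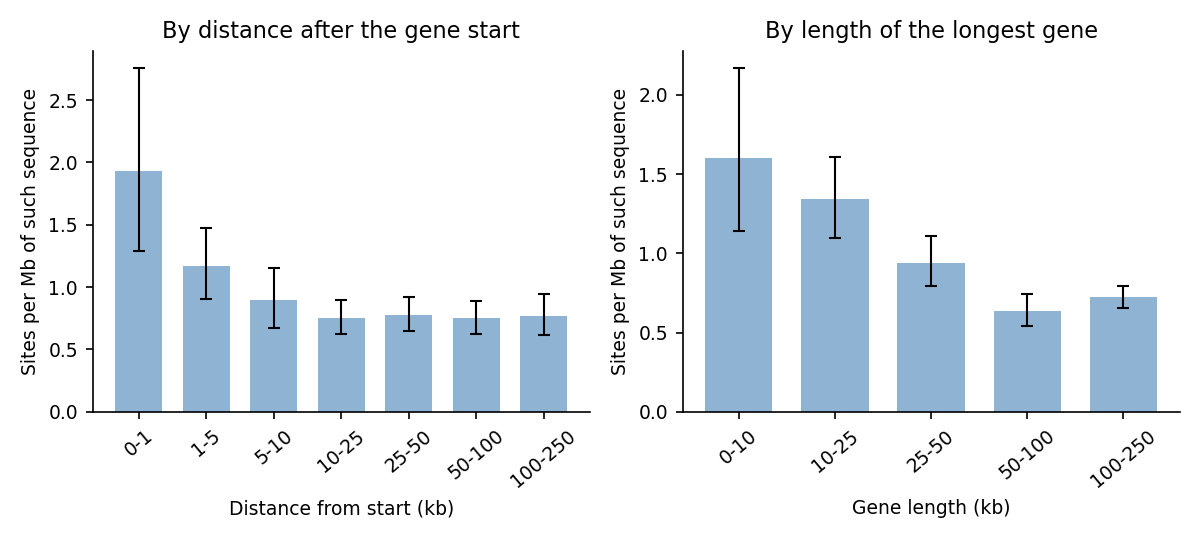
Sites per Mb of shorter-gene sequence, all 6 guides together, by distance after the gene start (left, the 522 sites with a known start) and by length of the longest gene at the site (right, 624 sites); error bars are exact 95% intervals of the share of sites. The first kb after a start holds 1.93 sites per Mb and stretches beyond 10 kb between 0.751 and 0.773; genes under 10 kb hold 1.6 per Mb.

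Sites were also unevenly spread over chromosomes. Chromosome 19 held 58 sites, 9.29% (7.13 to 11.9%), in 4% of shorter-gene sequence, or 1.9 per Mb. They came from SG1 (23), SG2 (21), SG4 (13) and SG3 (1). Chromosome 17 held 44 sites (7.05% in 4.33% of the sequence), chromosome 16 held 32 (5.13%, 3.53 to 7.16%, in 3.36%) and chromosome 22 held 22 (3.53% in 2%). Chromosome 4 held 18 (2.88%, 1.72 to 4.52%, in 5.12%) and chromosome 3 held 26 (4.17%, 2.74 to 6.05%, in 6.32%). The interval of every other chromosome held its share of sequence.

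Closeness to a gene start could be measured for 522 sites, those in a gene whose strand is given by the RefSeq promoter table. The other 102 had no known start, among them all 19 sites on chromosome 8, for which no promoter window was used here. The median site lay 28532.5 bp after the start. Within 1 kb there were 28 sites, 5.36% (3.59 to 7.66%), in 2.32% of the sequence of genes with a known start. Within 5 kb there were 90 sites, 17.2% (14.1 to 20.8%), in 10.8%, and within 10 kb 141 sites, 27% (23.2 to 31%), in 20%. The density was 1.93 sites per Mb in the first kb, 1.17 from 1 to 5 kb and 0.894 from 5 to 10 kb, and it lay between 0.751 and 0.773 further on.

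By guide, 22 of 145 SG1 sites (15.2%), 34 of 180 SG2 sites (18.9%), 3 of 17 SG3 sites (17.6%) and 26 of 170 SG4 sites (15.3%) lay within 5 kb of a start. For SG7 it was 1 of 2 and for SG8 4 of 8. The share exceeded that of the sequence for 6 of 6 guides, by 17 ± 17.2 percentage points on average (SD, n = 6). Of the 3 SG3 sites, those in FOXC1 and ABCD2 were also listed for SG8 at the same positions. SG3 and SG8 therefore did not give independent values. The exact sign-flip permutation p was 0.03125, the smallest that 6 guides allow, and 0.125 after adjustment, so the difference did not pass. Adjusted over 4 tests, a single result at this smallest p could not pass a threshold of 0.05, so this outcome does not judge the excess. SG7 and SG8 each exceeded the share of sequence by 39.2 points on 2 and 8 sites, and the 4 guides with more sites by 4.35 to 8.06 points. The mean excess was 35.6 points with genes under 100 kb, 29.5 with at least 10 counts per site and 8.7 for a window of 1 kb. Within 1 kb the share was 50% for SG7 (1 of 2 sites) and 0% for SG3 and SG8. It was 4.14% for SG1, 6.11% for SG2 and 5.88% for SG4, in 2.32% of the sequence. With genes under 100 kb and with at least 10 counts per site, SG7 kept only its TNF site, which lay within 5 kb of a start.

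Gene length moved with closeness, since a short gene lies wholly near its start. Among genes under 50 kb, 71 of 197 sites (36%, 29.3 to 43.2%) lay within 5 kb, in 26.3% of the sequence of such genes. Among genes of 50 to 250 kb, 19 of 325 (5.85%, 3.56 to 8.98%) did, in 4.71%. Within 1 kb the shares were 11.7% (7.55 to 17%) in 5.76% of the sequence for the shorter genes and 1.54% (0.501 to 3.55%) in 0.941% for the longer ones. The intervals lay above the share of sequence for genes under 50 kb and held it for genes of 50 to 250 kb, and the difference between these classes was not tested. The far end of genes also held many sites: from the first to the last of 5 equal parts of the gene the shares were 24.3%, 18%, 18.4%, 16.3% and 23%. The part of gene length in the closeness of sites to starts was not tested beyond this split.

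Of the 28 sites within 1 kb of a start, 11 were SG2 sites, 10 SG4, 6 SG1 and 1 SG7. With all guides together, 13 of them had at least 1% of the PKLR count (46.4%, 27.5 to 66.1%). Further away 132 of 494 sites did (26.7%, 22.9 to 30.9%). The ETHE1 site of SG1 was listed at the first base of the gene. The others of SG1 were NIPSNAP1, a mitochondrial protein gene, with 418 counts at 834 bp, CGREF1 with 112 at 555 bp, LAMTOR5, of the lysosomal complex that activates mTORC1, with 85 at 468 bp, C1orf232 with 37 at 756 bp, and IL6R, the interleukin 6 receptor, with 11 at 268 bp. Thus 5 of the 6 SG1 sites this close to a start reached 1% of the PKLR count, against 36 of its 139 sites further away, with intervals of 35.9 to 99.6% and 18.8 to 34%. For SG4 it was 6 of 10 against 46 of 160 (26.2 to 87.8% and 21.9 to 36.4%), and for SG2 2 of 11 against 38 of 169 (2.28 to 51.8% and 16.4 to 29.5%), so the guides did not all show the same direction, and no test was made. Within 5 kb the shares were 31.8% against 27.6% further away for SG1, 26.9% against 31.2% for SG4 and 24.4% against 28.5% for all guides together.

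For SG4, EMC9 of a membrane-insertion complex had 692 counts at 422 bp, CDPF1 had 395 at 987 bp and APOE, the apolipoprotein of lipid transport, had 292 at 332 bp. CDKN2B, a cell cycle inhibitor, had 99 at 387 bp, ABCB8, a mitochondrial transporter, 93 at 434 bp and DCDC2B 86 at 550 bp. TEX264, OTOG, the overlapping genes RHOF and SETD1B, and the overlapping USP32 and CHCT1 had 3 to 14 counts.

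For SG2, BEX4 had 610 counts at 989 bp and ZNF410, a zinc finger gene, had 86 at 537 bp. SEC16A, of secretory vesicle budding, had 47 at 570 bp, and CNDP2 and C22orf42 had 25 each. FBN3, ARMC6, AIRIM, DCAF7, TBC1D13 and LRRN2 had 4 to 15 counts. The TNF site of SG7 lay 196 bp after the start. SG3 and SG8 had no site within 1 kb of a start, among 17 and 8 sites with a known start.

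Families were assigned by gene symbol for 41 families, and 196 of the 624 sites fell in one. In 28 families there were 3 or more sites. The exact interval of a family's share of sites lay above its share of shorter-gene sequence for 3 families and below it for none of the 41. When each place within 50 bp was counted once, whichever guides listed it, the interval stayed above for 1 family. It was that of the WD and leucine-rich repeat genes (1.64%, 0.789 to 2.99%), with its lower end just above the 0.765% of sequence. The other 2 families hold a place listed more than once, and their intervals then held the share of sequence: 0.362 to 2.13% for the 6 places of ATPases and ion pumps and 0.102 to 1.43% for the 3 of forkhead genes. Families follow symbols, so a gene of like function with another symbol is not counted. The intervals are not adjusted for the 41 families looked at, and no family was tested.

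Membrane transporters formed the most frequent family. Solute carriers had 19 sites in 18 genes, 3.04% (1.84 to 4.71%) in 2.35% of the sequence. Among them were 7 sites of SG4, 6 of SG2 and 5 of SG1. SLC23A1 had 2097 counts and the organic anion transporter SLCO4A1 had 1200, both for SG4, and the lactate transporter SLC16A1 had 599 for SG2. ABC transporters had 6 sites, led by ABCB4, a phospholipid exporter of bile, with 154 counts for SG4, before ABCB8. ATPases, ion pumps and their regulators had 9 sites, 1.44% (0.662 to 2.72%) in 0.565%. Of these, 4 were entries of FXYD7 at or near 1 place, with 2805 and 26 counts for SG4, 6 for SG1 and 3 for SG2, and the next was ATP8B2, a lipid flippase gene, with 17 for SG2.

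Genes with the channel symbols CACN and SCN, only some of the sodium and calcium channel genes, had 3 sites, 0.481% (0.0993 to 1.4%) in 0.372% of the sequence. They had 4 to 30 counts, led by CACNA1H with 30 for SG4 and CACNA1I with 15 for SG2. Potassium channel genes with KCN symbols had 2, 0.321% (0.0388 to 1.15%) in 0.471%, of which KCNG3 is given above.

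**Figure D4:**
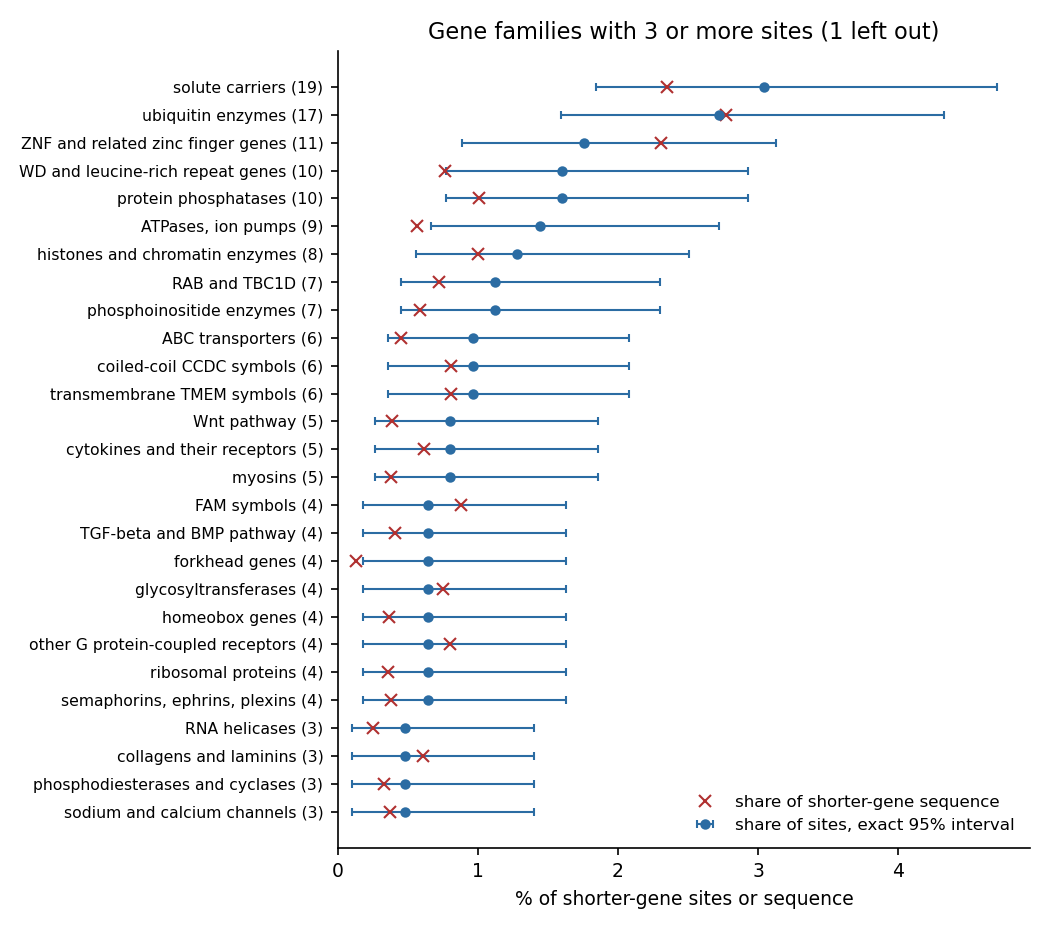
Gene families with 3 or more off-target sites in shorter genes, 1 family left out (number of sites in brackets), 6 guides together: percent of the 624 sites (blue, exact 95% interval) and percent of shorter-gene sequence in the family (red cross). Solute carriers lead with 19 sites; the cross lies left of the interval for ATPases and ion pumps, WD and leucine-rich repeat genes and forkhead genes.

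Among families of signalling proteins, protein phosphatases had 10 sites, led by the receptor phosphatases PTPRF with 184 counts and PTPRC, the leukocyte marker CD45, with 99, both for SG4. Phosphoinositide enzymes had 7, with SYNJ2 for SG1 and INPP5A, an inositol phosphatase, with 216 for SG4. RAB and TBC1D genes of membrane traffic had 7 sites, led by TBC1D9 with 55 counts for SG2 and TBC1D31 with 26 for SG3. Cyclic nucleotide enzymes had 3, of which the GUCY2F site of SG2 had 5515 counts and ADCY7, an adenylate cyclase, 10 for SG1.

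The Wnt pathway had 5 sites, with DVL2, a transducer, at 83 counts for SG4 and CTNNBL1 at 68 for SG4. CTNNBL1 was assigned by its symbol and is a splicing-related protein rather than a Wnt component. The TGF-beta and BMP pathway had 4, with SMAD3, a transducer, at 419 counts for SG2 and SMAD7, an inhibitor, at 95 for SG1. Cytokines and their receptors had 5 sites of 11 to 27 counts: TNF for SG7, IL16 with 20 for SG4, 20 for SG2 and 11 for SG1, and IL6R for SG1. Semaphorins, plexins and related guidance genes had 4, with PLXNB3 at 688 counts for SG4 and SEMA5B at 421 for SG2. Other G protein-coupled receptors had 4 sites, led by ADGRD1 with 216 for SG4.

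Among nuclear and gene-regulatory families, ZNF and related zinc finger genes had 11 sites in 2.31% of the sequence (1.76%, 0.883 to 3.13%). The highest were 124 counts for SG1 in the overlapping genes AZIN2, ZNF362 and TRIM62 and 86 for SG2 in ZNF410. Genes with histone and chromatin enzyme symbols, not all of them enzymes, had 8 sites. They were led by ARID4A, the chromatin protein described above, for SG3 and TET3, a DNA demethylating enzyme, at 367 counts for SG4. Forkhead genes had 4 sites, 0.641% (0.175 to 1.63%) in 0.129%: FOXC1 with 84 counts for SG8 and 25 for SG3 at the same position, FOXK1 with 26 for SG1, and FOXM1, which overlaps ITFG2, with 6 for SG1. Homeobox genes had 4 sites, led by the joined gene HOXA10-HOXA9 with 58 counts and DLX4 with 41, both for SG4. RNA helicases had 3, DDX23 with 19 counts for SG1 and DDX11 with 15 and 13 for SG2. Genes of cytoplasmic and mitochondrial ribosomal proteins had 4, led by MRPL58 with 20 and RPS18 with 10, both for SG2.

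Ubiquitin enzymes had 17 sites in 17 genes, 2.72% (1.59 to 4.33%) in 2.77% of the sequence, led by the deubiquitinase gene USP40 with 328 counts and the ligase gene TRIM22 with 269, both for SG1. WD and leucine-rich repeat genes had 10, 1.6% (0.771 to 2.93%) in 0.765%, with a median of 7 counts, WDR44 highest at 169 for SG4 and WDR25 next at 45 for SG2. Myosins had 5, led by MYO18A for SG2 and MYO1E with 68 for SG4. Glycosyltransferases had 4, led by ST6GALNAC5, a sialyltransferase, with 562 counts for SG4, and EXT2, of heparan sulfate synthesis, had 9 for SG2. Collagens and laminins had 3, all of SG1, led by LAMB4 with 193 and LAMA4 with 44. Genes named only for coiled coils (CCDC) or transmembrane segments (TMEM) had 6 each: CCDC57 led the first, with CCDC73 next at 56, and TMEM266 led the second with 295 before TMEM65 with 57, all for SG4. FAM symbols had 4, led by FAM193A with 119 for SG4 and FAM178B with 104 for SG2. Keratins, olfactory receptors and serpins, which hold 0.0773%, 0.36% and 0.101% of the sequence, had no site.

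A further 4 lists of genes were looked up beside the families. A list of mitochondrial genes, which is partial and holds neither NIPSNAP1 nor ABCB8 nor MRPL58, had 7 sites, 1.12% (0.452 to 2.3%) in 0.452% of the sequence: ETHE1 for SG1, CPT1A for SG4, SLC25A12, an aspartate and glutamate carrier, with 22 counts for SG1, and 4 entries in VDAC1. Cancer genes held 4, 0.641% (0.175 to 1.63%) in 1.17%. They were CDK6, a cell cycle kinase, with 41 counts, FBXW7, a ubiquitin ligase subunit, with 21 and MSH6, of mismatch repair, with 3, all for SG2, and CDKN2B with 99 for SG4, the only one of them above 1% of PKLR (2.13%). DNA repair genes held 2, MSH6 and OGG1, the glycosylase of oxidised guanine, with 12 counts for SG2. Red cell, blood and glycolysis genes held 1, ENO2, a neuronal enolase, with 22 counts for SG1.

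Within single genes, 557 genes had 1 site and 38 had more, 28 of them from at least 2 guides. VDAC1 was the only gene with sites of 4 guides. At position 134063729 of chromosome 5 it had 1293 counts for SG3, 23 for SG8 and 2 for SG7, and at 133999262 it had 3 counts for SG2. DYRK1A had 3054 counts for SG2 and 5 for SG1 at 37494434, further along the gene. MYRF, a transcription factor gene of myelination, had 630 and 6 counts for SG2 at separate positions, and TET3 had 367 and 12 for SG4. ARHGEF7 had 232 counts for SG2 and 144 for SG4 at different positions. SLC23A1 had 2097 and 8 counts for SG4 at positions 139373816 and 139373764.

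Places in shorter genes were shared between guides in 8 cases, with 21 entries, counting positions within 50 bp as 1 place. In 5 of them 1 guide had over 1000 counts and every other guide 23 or fewer. At the GUCY2F place SG2 had 5515 counts and SG4 had 3. At the FXYD7 place SG4 had 2805, SG1 had 6 and SG2 had 3. The SYNJ2 place had 2680 for SG1 and 5 each for SG3 and SG4. SMCHD1 had 1114 for SG3, 5 for SG8 and 2 for SG1, and VDAC1 is given above.

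The other 3 places were listed for SG3 and SG8 alone, the guides whose PKLR positions lay 1 bp apart. LRP6 had 28 counts for SG3 and 26 for SG8, ABCD2 had 17 and 10, and FOXC1 had 25 and 84. As percent of PKLR these were 0.907% and 0.344% for LRP6, 0.551% and 0.132% for ABCD2, and 0.81% and 1.11% for FOXC1. In all, 5 of the 9 SG8 sites and 1 of the 2 SG7 sites were at shared places. Among all off-target sites of these guides it was 12 of 28 for SG8 and 2 of 7 for SG7. Whether low counts at a place that is high for another guide came from that guide's library was not tested.

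**Figure D5:**
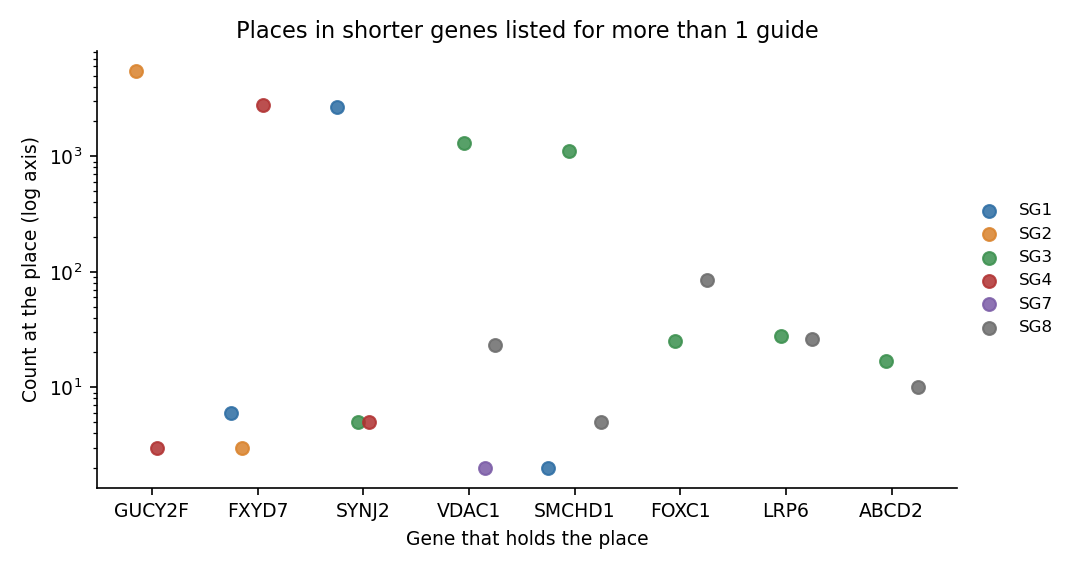
Counts (log axis) at the 8 places in shorter genes listed for more than 1 guide, by gene; each point is 1 guide's most counted entry at the place, set side by side in guide order. In 5 genes 1 guide has over 1000 counts and the others at most 23, and in FOXC1, LRP6 and ABCD2 the entries are of SG3 and SG8 and lie between 10 and 84 counts.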

How the data were processed

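GUIDE-seq libraries of 6 guides were sequenced on a MiSeq from both ends (150 bases each), per the labels' protocols. Site counts are used as deposited, unnormalized, with 2 the lowest listed. The sources used here do not say whether reads or molecules were counted. The authors also deposited a ratio of counts, which was not used for results. The submitters' processing notes name hg38; aligner and site caller: not given in the sources used here. Whether positions count from 0 or 1 is not stated, and they are printed as listed.

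Positions were placed in the RefSeq gene table (GRCh38, patch release 14), and percentages of PKLR were recomputed from the counts. Strand came from the RefSeq promoter table, which matched 15813 of 19974 protein-coding genes. The start of a gene was its first base on that strand in the gene table. A site with overlapping genes took the nearest start. Backgrounds are the bases of shorter genes outside longer ones. Between guides nothing was tested; over guides, exact sign-flip permutation tests were used, and shares have exact Clopper-Pearson 95% intervals.

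Named are each guide's 6 most counted sites, every site within 1 kb of a start, in a listed gene or at a shared place, the genes with several sites by summed count, and the 2 most counted sites of each family with 3 or more. For SG8 all 9 sites are named, since its sixth place is tied; a few further sites were named after their values were seen. By this rule a few sites and 1 family also qualify that are not reported here. The sites, families and lists were chosen with earlier results of these data known. Code was tested on simulated data: 300 of 300 drawn positions returned their gene and 200 of 200 planted matches were recovered. The software was Python 3.11.15 with scipy 1.17.1, pandas 2.3.3, numpy 2.4.6 and matplotlib 3.10.9.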

Additional observations from a re-analysis of the deposited data

How the results depend on the processing

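Alternatives were length limits of 100 and 500 kb, at least 10 counts per site, merging sites within 100 bp, leaving out shared places, keeping sites where any shorter gene held them, other start windows and thresholds, and leaving out each guide. Of 119 recomputed values, 84 kept their direction and side of the threshold or moved within their error, 29 moved and 6 reversed. With genes under 100 kb the numbers of sites were 109, 128, 10, 119, 1 and 4 (SG1, SG2, SG3, SG4, SG7, SG8), and the shares of off-target sites 24.3, 24, 20.4 and 21.6% for the first 4 guides and 14.3% for SG8. With genes under 500 kb the shares of SG1, SG2 and SG4 were 46.9, 47.5 and 44.5%. The share of sequence given above is for genes under 250 kb, so the shares at 100 and 500 kb cannot be set against it. Genes of 100 to 250 kb held 40.5% of the 624 sites and 45.9% of the shorter-gene sequence. Under 100 kb the share of sequence is therefore smaller too. With at least 10 counts there were 109 (SG1), 131 (SG2), 135 (SG4), 1 (SG7) and 5 (SG8) sites, and the SG7 share was 100%. Without shared places SG7 had 1 site and SG8 had 4. Without its most counted site each guide's share of off-target counts was 41.2, 41.1, 55.5, 37.7, 9.09 and 3.22%. The log10 difference from other sites was -0.0606 and that from longer-gene sites -0.213 with at least 10 counts, where SG7 gave no value. Leaving out 1 guide in turn, the first ran from -0.0611 to 0.106, that from longer-gene sites from 0.00266 to 0.297, the difference in share at 1% of PKLR from -7.72 to 1.51 percentage points, and the excess near starts from 12.6 (without SG7 or without SG8) to 19.5; at 0.1% of PKLR the difference in share was 1.49. The excess near starts was 35.6 points with genes under 100 kb, 29.5 with at least 10 counts and 23.9 without shared places. In these settings SG7 kept only its TNF site. The excess was 8.7 and 14 for windows of 1 and 10 kb, with SG7 at 50% on 2 sites in both. Within 1 kb SG3 and SG8 had 0 sites. The excess was 16.1 with the gene's nearest start in the RefSeq promoter table, an alternative chosen after seeing the data. With each place counted once, also chosen then, 1 family in place of 3 had an interval above its share of sequence. The cause of these changes was not tested beyond the smaller numbers of sites. The few sites of SG3, SG7 and SG8 limit all shares given for them.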
